A study of Mus musculus with 4 samples.

Results

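The genes described here encode the proteins that store transmitter in synaptic vesicles and fuse vesicles with the membrane, together with their relatives on other organelles. Members were all probe sets whose only gene symbol belongs to the synaptotagmin, synapsin, synaptophysin, SV2, SNAP, syntaxin (syntaxin-binding proteins included), VAMP, complexin, NSF, soluble NSF attachment protein, rabphilin or RIM families. This rule, which used no measured value, took 53 probe sets of 42 genes out of 12488 probe sets on the array. It found no probe set for SV2, RIM or rabphilin genes, nor for Syn1, Syn3 or Napg, so these were not analysed here.

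The tissue was the CA1 region of the hippocampus, the pyramidal cell field that carries hippocampal output, from young male C57BL/6J mice. All mice were put into an unfamiliar chamber 2 h ahead of training and then received 3 foot shocks of 0.5 mA, each lasting 1 s and preceded by 2 min in the chamber, a condition the labels name shock alone. Total RNA taken 1, 2, 4 or 6 h after the last shock was read on Affymetrix MG-U74Av2 arrays, with 1 array per time and 4 in all. How many animals made up a sample is not stated in the labels, and unshocked mice were not analysed here, so times can be compared only with each other. Without replicates there is no error for any value, no test was run and no p-value is given. A probe set, a group of short oligonucleotides for 1 transcript, gives a linear intensity that depends on its oligonucleotides as well as on the RNA, so intensities are compared between arrays and not between genes.

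Release of transmitter turns on SNARE proteins, which carry a coiled-coil motif and zipper together from opposite membranes. At the synapse the vesicle SNARE synaptobrevin (Vamp2) pairs with syntaxin 1 and SNAP-25 on the plasma membrane, complexins hold the assembled bundle, and synaptotagmin triggers fusion when calcium enters. The ATPase NSF, recruited by soluble NSF attachment proteins, then pulls the spent bundle apart for another round, while other SNAREs serve the Golgi apparatus and endosomes of every cell. Most nerve terminals in CA1 belong to CA3 pyramidal cells and local interneurons, while the RNA of a terminal's proteins is made in the cell body, so the arrays read mainly the machinery of the cells whose bodies lie in the sample.

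Of the 53 probe sets, 38 lay above a floor of 100.8 intensity units on all 4 arrays, 8 on some of them and 7 on none. The floor is the 40th percentile of all values, and a value under it is a bound and not a level. By gene, 33 of 42 had a probe set above the floor on all 4 arrays, 4 only on some, and 5 on none.

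As array checks, the ratio of 3' to 5' control probe sets was highest at 2 h, at 2.70 for actin against 1.74 to 1.84 on the other arrays. For Gapdh it was 4.82 at 2 h against 3.24 to 3.98, so it was above 3 on every array. The 6 h array alone read the choroid plexus gene Ttr strongly, at 4482, against 89.9 to 198 on the others. Summed over the 3 measured choroid plexus markers of 4 on the array, the intensity was 386, 327, 613 and 5245 at 1, 2, 4 and 6 h. All 4 measured CA1 pyramidal markers lay above the floor on every array but were not even across arrays. At 1, 2, 4 and 6 h Wfs1 read 1709, 1637, 2608 and 2205, and Neurod6 read 768, 648, 1263 and 1089. Nrgn read 3619, 4399, 4521 and 4781. Pou3f1 went the other way at 4 h, at 484, 455, 355 and 359. Because whole tissue was read, fewer cells of a type and less RNA per cell cannot be told apart.

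The release machinery varied little over the hours. Over the 38 probe sets the highest of the 4 values was 1.05-fold to 1.79-fold the lowest, with a median of 1.27-fold, against a median of 1.32-fold over all 6442 probe sets above the floor on all 4 arrays. A range of at least 1.5-fold was found in 6 of 38 members, or 15.8%, and in 27.9% of all probe sets. These were Stx2, a dim second probe set of Vamp2, a second probe set of Syt3, Snap91, a probe set of Vamp4, and Napa. A range of at least 2-fold was found in 0 of 38, against 6.33% of all. Among probe sets that averaged at least 500 units, the shares were 3 of 25 members, or 12.0%, and 12.4% of all, so members of that brightness ranged about as often as other probe sets did. Without the 2 h array, the one with the highest control ratios, 3 of 38 members had a 1.5-fold range (7.89%, all 17.6%), and without the 4 h array also 3 (7.89%, all 20.6%). Without the 1 h array the count was 5 (13.2%, all 20.2%), and without the 6 h array 5 (13.2%, all 20.1%). These shares with an array left out were not matched for brightness.

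**Figure D1:**
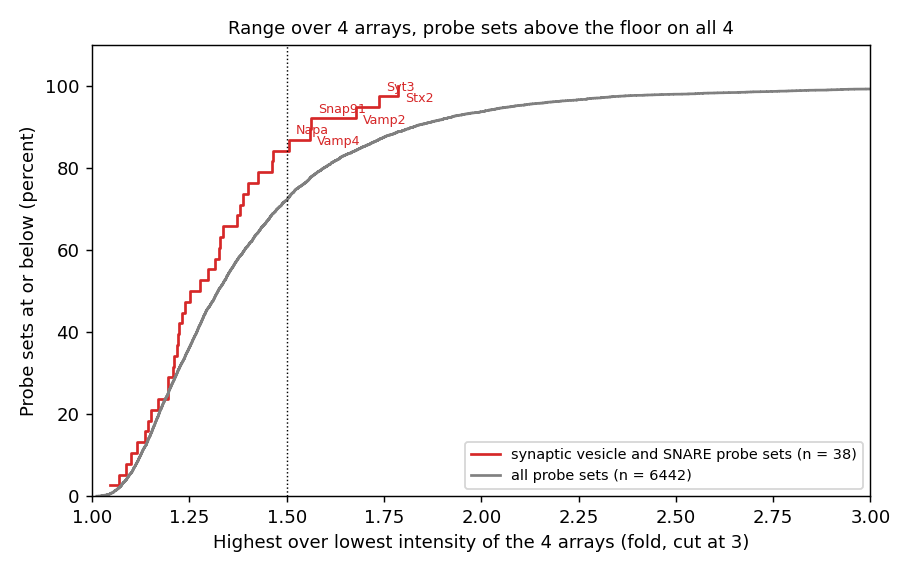
Cumulative percent of probe sets (vertical axis) by the highest over the lowest intensity of the 4 arrays (horizontal axis, fold, cut at 3), for the 38 synaptic vesicle and SNARE probe sets in red and all 6442 probe sets above the floor on all 4 arrays in grey. The dotted line marks 1.5-fold, past which lie 6 members and 27.9% of all probe sets, and no member lies past 1.79-fold.

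No member stood apart at a single time. A probe set was taken to stand apart when its value at 1 time was at least 1.5-fold above, or at least 1.5-fold below, the value on each of the other 3 arrays. This held for 0 of 38 members and for 6.3% of all probe sets. By time, members above and below numbered 0 and 0 at 1 h (0.574% and 0.931% of all), 0 and 0 at 2 h (1.18% and 1.12%), 0 and 0 at 4 h (0.202% and 1.01%) and 0 and 0 at 6 h (0.326% and 1.16%). The nearest was the second probe set of Syt3 at 2 h, which read 149 against 211 to 259 elsewhere and so lay at least 1.42-fold below each other array. Next came Nsf at 6 h, by at least 1.33-fold, the second probe set of Vamp2 at 4 h, by at least 1.32-fold, and Stx2 at 4 h, by at least 1.31-fold, all of them low values. That Syt3 probe set passed the limit once the arrays were scaled to a common median or quantile normalized.

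Among the SNAREs that drive release itself is Snap25, the palmitoylated plasma membrane SNARE that supplies a pair of helices to the fusion bundle. Snap25 read 23480, 23607, 20656 and 21325 intensity units at 1, 2, 4 and 6 h. Vamp2, the vesicle SNARE, read 12822, 13492, 11070.0 and 12248 on its bright probe set. Stx1a, the syntaxin of the presynaptic plasma membrane, read 796, 888, 717 and 837. All 3 of these were lowest at 4 h and highest at 2 h, although their ranges were only 1.14-fold for Snap25, 1.22-fold for Vamp2 and 1.24-fold for Stx1a. The dimmer Vamp2 probe set, near the floor, read 178, 140, 106 and 161 and was likewise lowest at 4 h. Vamp1, a vesicle SNARE of other neuron classes, was above the floor on 2 of 4 arrays on each of its probe sets. The first, at 189, 57.2, 49.6 and 105, exceeded its 2 h and 4 h values, both under the floor, by at least 1.87-fold at 1 h, while the second read 103, 69.7, 107 and 94.1 and was highest at 4 h.

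The other SNAREs of exocytosis, which serve plasma membranes in many cell types, were mixed. Stx2, a plasma membrane syntaxin also known as epimorphin, read 482, 364, 277 and 495. It had the widest range of the 38, 1.79-fold between 6 h and 4 h, and its values at 6 h and 1 h were alike, so the low point lay in the middle of the course. Stx4a, a syntaxin of glucose transporter and plasma membrane traffic, read 598, 621, 590 and 648, and Snap47 read 4886, 5228, 5029 and 5116. These 2 were nearly level, with ranges of 1.10-fold for Stx4a and 1.07-fold for Snap47. Vamp3, also called cellubrevin, read 230, 246, 234 and 288, and Vamp7, a SNARE of lysosome-related and neurite traffic, read 202, 216, 179 and 196. Vamp8, also called endobrevin, was higher at each later time, at 560, 678, 718 and 777. Its second probe set read 136, 50.1, 96.2 and 240, above the floor at 1 h and 6 h alone, and like the first was highest at 6 h. Both Vamp8 probe sets are of the kind whose oligonucleotides can bind related sequences.

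Several exocytic members could be given only as bounds. Snap23, the relative of Snap25 found in most tissues, read 79.3, 126, 152 and 90.2, above the floor at 2 h and 4 h. Stx3 was above it only at 2 h, at 126 and at 103 on 2 of its 3 probe sets, and under it elsewhere and on the third. A second Vamp7 probe set was above the floor at 2 h alone, at 109, and Vamp5 lay under it on every array.

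Across the exocytic SNAREs, 7 of the 10 probe sets above the floor on all 4 arrays were lowest at 4 h, as were 24.3% of all probe sets, and the other 3 at 1 h. Of these 7 minima 2 belong to Vamp2 alone, and that of Stx4a was slight, at 590 against 598 at 1 h. With the brightest probe set standing for each gene, 8 of 10 genes with a mean above the floor lay below the mean of the other times at 4 h, as did 50.8% of all genes, and 2 above. The median log2 difference was −0.13, against 0.00 over 5671 genes. The members that lay above were Snap23, which was under the floor at 1 h and 6 h, and Vamp8. Among the 8 below, Snap47 stood at only −0.01 and Stx4a at −0.08. Neuron markers from outside the family (7 measured, among them Eno2, Tubb3 and Uchl1) had a median log2 difference of −0.15 at 4 h with 5 of 7 below. The 2 above were Nefl and Nefm, and Nefm read 167, 466, 368 and 232. The summed intensity of the 7 was 39488, 37214, 35183 and 38370 from 1 to 6 h. CA1 pyramidal markers went the other way at 4 h, with a median of 0.30 over 4 genes (3 above). The part of either marker list in the 4 h values of the SNARE genes was not tested.

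**Figure D2:**
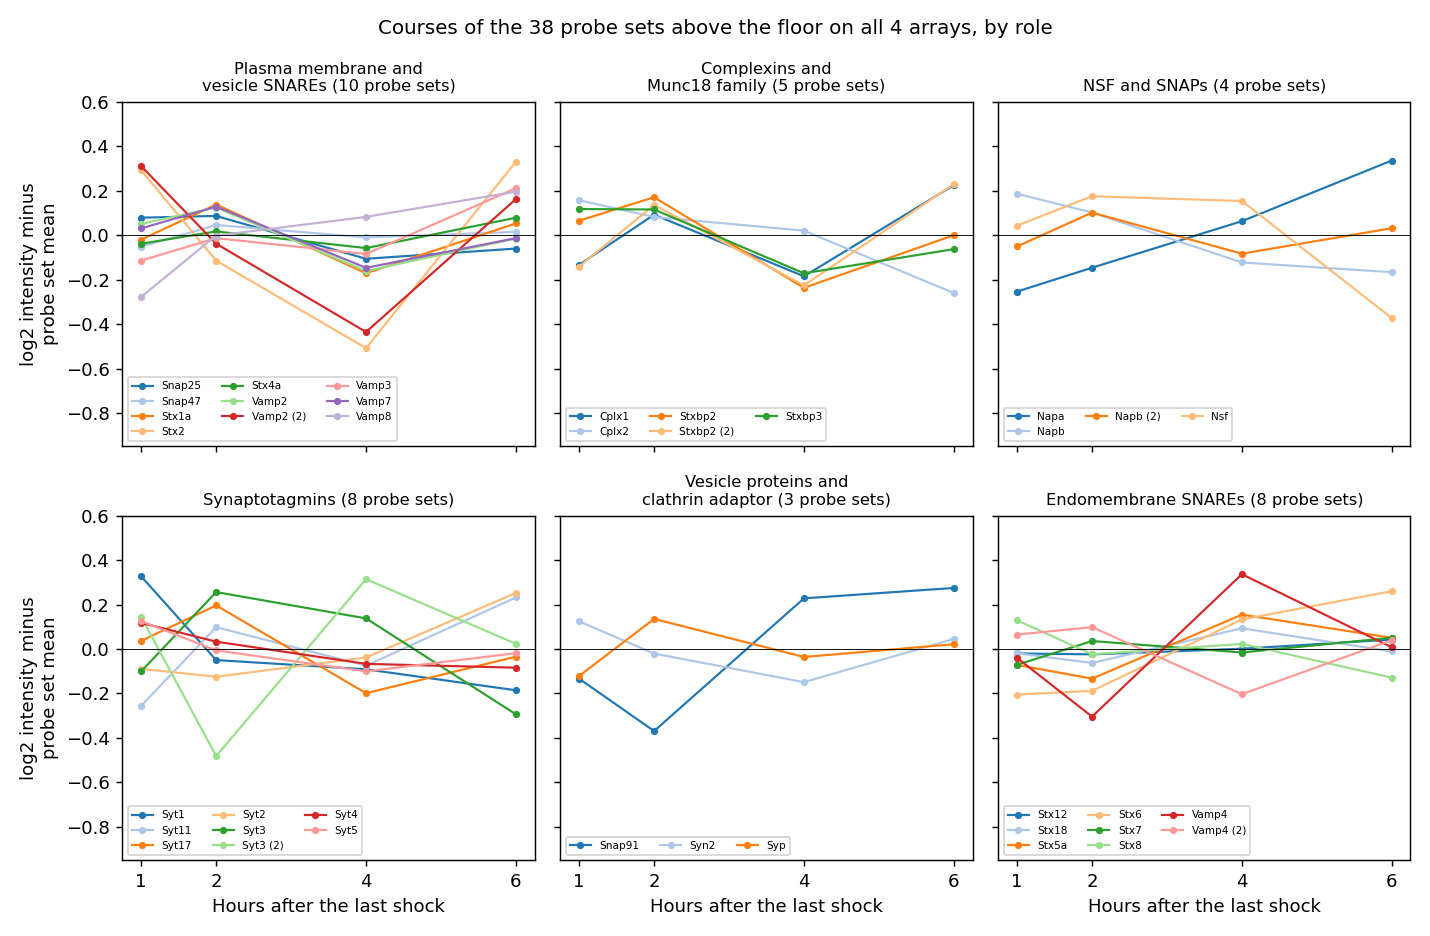
Courses of the 38 probe sets above the floor on all 4 arrays, in 6 panels by role, as log2 intensity minus the probe set's own mean over the arrays (vertical axis) against hours after the last shock (horizontal axis). Each line is 1 probe set, and (2) marks the dimmer probe set of a gene. Of the 10 probe sets of exocytic SNAREs 7 have their low point at 4 h, as have 4 of the 5 of complexins and syntaxin-binding proteins.

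Regulators of SNARE assembly were measured above the floor on all 4 arrays by 5 probe sets of 4 genes. Complexins are small proteins that clamp the partly zipped bundle and then aid fast fusion. Cplx1 read 1013, 1184, 977 and 1298, and Cplx2 read 2404, 2282, 2187 and 1800. The 2 complexins parted at 6 h, where Cplx1 was highest and Cplx2 lowest, each within a range of about 1.33-fold. Stxbp2 and Stxbp3 encode Munc18 proteins, which chaperone syntaxins and template SNARE assembly, and act mainly outside the nerve terminal. Stxbp2 read 217, 233, 176 and 207, and 180, 218, 170 and 233 on its second probe set. Stxbp3 read 294, 293, 240 and 259. All but Cplx2 of these 5 probe sets were lowest at 4 h, as were 24.3% of all, with ranges from 1.22-fold to 1.37-fold. Of these 4 minima 2 belong to Stxbp2 alone.

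NSF and its attachment proteins, which take spent SNARE bundles apart, went in different directions. Napa encodes alpha-SNAP, the attachment protein of all cells, and read 3027, 3261, 3770 and 4555 at 1, 2, 4 and 6 h. It was higher at each later time and reached 1.51-fold at 6 h over 1 h, the only member with such a course and a 1.5-fold range, where 0.792% of all probe sets had an upward one. Napb encodes beta-SNAP, its brain-enriched relative, and read 2904, 2739, 2344 and 2274, lower at each later time. Its second probe set, which can bind related sequences, read 546, 607, 534 and 578 and did not repeat that order, with 3 of 6 pairs of times in the same direction. Nsf itself read 8125, 8905, 8774 and 6092, level to 4 h and lowest at 6 h, where it was 1.44-fold lower than at 4 h. So at 6 h, on the array with Ttr at 4482, Napa stood highest while Napb and Nsf stood lowest on their bright probe sets. Whether the choroid plexus RNA of that sample takes part in these values was not tested. Quantile normalization brought Napa just under 1.5-fold, with a log2 difference of 0.57 at 6 h over 1 h.

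Because the 3 genes of this step parted in their courses, the 250 bases before their transcription starts are shown, from RefSeq on GRCm38.p6, 5′ to 3′ on the strand of the gene. Capitals mark CACGTG, the palindromic E-box bound by factors such as USF and by clock and lysosomal regulators, a motif chosen after these sequences had been seen. The windows lie at chr7:16098330-16098579 on the plus strand for Napa, chr2:148732421-148732670 on the minus strand for Napb and chr11:103954057-103954306 on the minus strand for Nsf.
Napa: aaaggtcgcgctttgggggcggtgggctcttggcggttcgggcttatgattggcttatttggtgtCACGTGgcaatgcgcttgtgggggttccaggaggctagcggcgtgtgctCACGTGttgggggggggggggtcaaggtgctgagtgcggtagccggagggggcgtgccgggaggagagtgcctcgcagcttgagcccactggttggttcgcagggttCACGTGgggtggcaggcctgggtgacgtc
Napb: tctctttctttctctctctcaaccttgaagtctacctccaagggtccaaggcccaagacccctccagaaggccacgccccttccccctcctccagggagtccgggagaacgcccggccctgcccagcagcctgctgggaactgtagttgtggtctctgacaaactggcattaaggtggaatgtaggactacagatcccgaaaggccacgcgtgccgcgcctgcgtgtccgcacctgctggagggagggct
Nsf: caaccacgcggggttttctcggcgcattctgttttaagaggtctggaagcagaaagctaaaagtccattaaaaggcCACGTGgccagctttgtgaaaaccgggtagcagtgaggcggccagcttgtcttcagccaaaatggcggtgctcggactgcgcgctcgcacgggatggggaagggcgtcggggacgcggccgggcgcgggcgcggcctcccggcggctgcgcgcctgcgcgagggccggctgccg

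In these windows Napa held 3 matches to CACGTG, starting 185, 136 and 29 bases before the start, Nsf held 1, at 174 bases before it, and Napb held 0. Whether these matches have a part in the courses of the 3 genes was not tested. Napa also held the cyclic AMP response element TGACGTCA, known as the site of CREB, which starts 7 bases before the start and ends on the first transcribed base, so that its last letter falls outside the run printed. Nsf held 1 match to GCGNGGGCG, a site of Egr factors. Of the 42 genes, 34 had a window in the RefSeq table, some with several starts, which gave 45 windows of 300 bases (250 before the start and 50 after it). Both strands were searched. CACGTG lay in 7 of the 45 windows, or 15.6%, and in 7.15% of 32851 windows of the whole table. TGACGTCA lay in 2 of 45 (Napa and Stxbp3), or 4.44%, against 1.79%. The AP-1 site TGANTCA lay in 3 of 45, or 6.67%, against 7.81%, and GCGNGGGCG in 5, or 11.1%, against 5.55%. The Sp1 site GGGCGG, which can overlap GCGNGGGCG, lay in 29 of 45, or 64.4%, against 35.7%. The windows of the whole table were not limited to genes on the array or above the floor, nor matched for base composition. The higher shares therefore cannot be read as a trait of this family. These are matches of letters and not tests of binding.

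**Figure D3:**
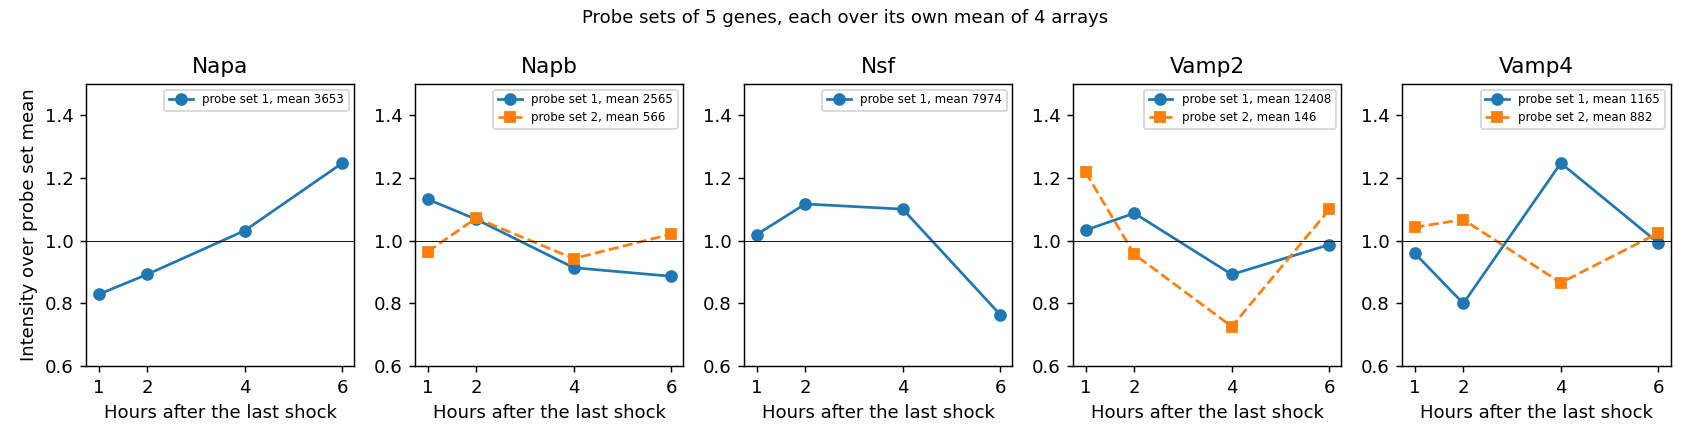
Intensity over the probe set's own mean of the 4 arrays (vertical axis) against hours after the last shock (horizontal axis) for Napa, Napb, Nsf, Vamp2 and Vamp4, with a second probe set in orange where 1 was above the floor on all 4 arrays. Napa is higher at each later time, the bright Napb probe set is lower at each later time, Nsf is lowest at 6 h, and the 2 Vamp4 probe sets run in opposite directions.

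Synaptotagmins, vesicle proteins with paired calcium-binding folds, included both steady and drifting members. Syt1, the calcium sensor of fast release, read 1091, 840, 817 and 765 at 1, 2, 4 and 6 h. It was lower at each later time, and most of that difference lay between 2 h and 1 h, where it was 0.77-fold. Syt5 read 1374, 1254, 1175 and 1243, and Syt4, a relative that depolarization induces in rat PC12 cells, read 403, 380, 354 and 350.0. Both were highest at 1 h, by no more than 1.17-fold over their lowest value. Syt2, the fast sensor of other neuron classes, read 426, 416, 442 and 540, and Syt11, a member that does not bind calcium, read 434, 554, 492 and 608. These 2 were highest at 6 h. Syt17, which lacks the membrane anchor of its relatives, read 1100, 1229, 935 and 1047 and was lowest at 4 h.

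Syt3 gave conflicting courses. Its bright probe set read 599, 767, 706 and 524, highest at 2 h, while the second, of the kind that can bind related sequences, read 230, 149, 259 and 211, lowest at 2 h. The 2 probe sets took the same direction in 3 of 6 pairs of times, so no course for the gene can be read. Syt7, a slower sensor, was above the floor at 1 h alone, at 132, at least 1.30-fold higher than at each later time. Syt6, Syt8, Syt9 and Syt10 lay under the floor on all 4 arrays, as did the second probe set of Syt2.

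Proteins of the vesicle itself differed little. Syp, which encodes synaptophysin, the most abundant vesicle membrane protein, read 536, 641, 569 and 592. Syn2, a synapsin that tethers reserve vesicles to actin, read 1715, 1551, 1419 and 1623. Syp was lowest at 1 h and Syn2 at 4 h, each within 1.21-fold.

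Snap91 is a member by its symbol only. It encodes AP180, which builds clathrin coats when vesicles are retrieved, and is no SNARE. It read 977, 829.7, 1255 and 1296, lower at 2 h and 1 h than at 4 h and 6 h. The span was 1.56-fold, at 6 h over 2 h. The low value was on the 2 h array, whose actin ratio was 2.70, and the part of this in it was not tested.

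The SNAREs of the Golgi apparatus and endosomes, needed for traffic in every cell, were mixed. Of 8 probe sets, 3 were highest at 4 h (23.1% of all) and 3 at 6 h (23.5% of all). The lowest value came at 2 h for 4 of 8 (26.7% of all), on the array with the actin ratio of 2.70, whose part in it was not tested. Stx6, a syntaxin of the trans-Golgi network, was higher at each later time, at 289, 292, 365 and 399. Stx5a, which serves traffic from the endoplasmic reticulum to the Golgi, read 635, 608, 743 and 691, and Stx18, a syntaxin of the endoplasmic reticulum, read 484, 469.9, 524 and 487. The last 2 were highest at 4 h and lowest at 2 h. Of the endosomal syntaxins, Stx12 read 2655, 2648, 2694 and 2773, a range of 1.05-fold and the narrowest of the 38. Stx7 read 2238, 2409.5, 2325 and 2435, and Stx8 read 302, 271, 280.4 and 252. The highest Stx8 value was on the 1 h array and the lowest on the 6 h array.

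Vamp4, a vesicle SNARE of the trans-Golgi network, depended on the probe set. The brighter read 1119, 932, 1453 and 1157, lowest at 2 h and highest at 4 h, 1.56-fold apart. The other read 919, 941, 763 and 903, highest at 2 h and lowest at 4 h. They took opposite directions in all 6 pairs of times, with 0 in the same direction, so the Vamp4 range of 1.5-fold rests on 1 probe set.

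With the brightest probe set for each gene, 6 of 7 endomembrane SNARE genes exceeded at 4 h their mean over the remaining arrays, as did 49.2% of all genes, with a median log2 difference of 0.12, and Stx7 lay below. Of the 6, Stx12 and Stx8 were almost level, at 0.00 and 0.03, and Vamp4 stood at 0.45 on its brighter probe set but at −0.27 on the other. The difference was not confined to 4 h. Of the 7 genes, 6 lay below at 1 h and 6 at 2 h (2697 and 2700 of all 5671 genes), and 5 lay above at 6 h (2771 of all). The medians of −0.13 for exocytic and 0.12 for endomembrane SNAREs had opposite signs at 4 h. When the 1 h, 2 h or 6 h array was left out they were −0.15 to −0.12 and 0.10 to 0.13. Each of these rests on the same 4 h array, so leaving out others cannot show whether that sample is unusual. With other scalings, floors, probe sets and summaries they ran from −0.17 to −0.07 and from 0.09 to 0.17. The smallest exocytic value, −0.07, came with quantile normalization. CA1 pyramidal markers were higher at 4 h as well, with a median of 0.30 over 4 genes (3 above), among them Neurod6 at 768, 648, 1263 and 1089. The neuron markers given with the exocytic SNAREs had a median of −0.15 at 4 h, so the 2 marker lists differed in sign. The part of either list in the endomembrane values was not tested.

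Taking all 38 probe sets above the floor on all 4 arrays, 16 were lowest at 4 h, or 42.1%, against 24.3% of all 6442. Only 4, or 10.5%, were highest at 4 h, against 23.1%. The lowest value came at 1 h for 8 members (21.1%, all 22.8%), at 2 h for 7 (18.4%, all 26.7%) and at 6 h for 7 (18.4%, all 26.2%). The highest came at 1 h for 9 (23.7%, all 24.8%), at 2 h for 12 (31.6%, all 28.7%) and at 6 h for 13 (34.2%, all 23.5%). These are counts of order and take no account of size. Without the 2 h array 42.1% of members and 32.8% of all were lowest at 4 h, and without the 6 h array 52.6% and 35.5%. The median log2 difference of the 34 genes with a mean above the floor was −0.06 at 4 h, beside −0.03 at 1 h, 0.05 at 2 h and 0.015 at 6 h. Summed over these genes, the intensity was 78492, 80453, 74633 and 75285, a range of 1.08-fold.

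**Figure D4:**
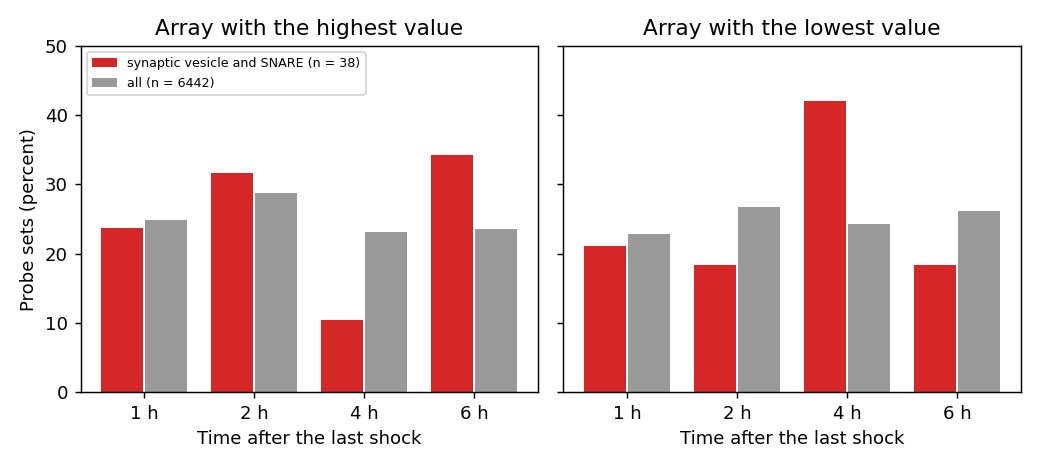
Percent of probe sets (vertical axis, bars from 0) whose highest value (left panel) or lowest value (right panel) was on each array, for the 38 synaptic vesicle and SNARE probe sets in red and all 6442 in grey. The lowest value came at 4 h for 42.1% of the members and 24.3% of all probe sets.

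Set against each other by pairs of times, few members differed by 1.5-fold. At 6 h over 1 h, 2 of 40 were higher (3.76% of all probe sets), Napa and the second probe set of Vamp8, and 1 was lower (5.82% of all), the first probe set of Vamp1. At 4 h over 1 h, 2 of 39 were lower (5.33% of all), Stx2 and the second probe set of Vamp2. At 2 h over 1 h, 1 of 38 was lower (4.84% of all), the second probe set of Syt3. At 4 h over 2 h, 3 of 39 were higher (4.46% of all), Snap91, a Vamp4 probe set and that Syt3 probe set. At 6 h over 2 h, 1 of 38 was higher (4.59% of all), Snap91, and at 6 h over 4 h, 2 of 38 were higher (3.93% of all), Stx2 and the second Vamp2 probe set. In the remaining direction of each of these pairs the count was 0, where the share of all probe sets was 5.59% for 2 h higher than 1 h, 3.38% for 4 h higher than 1 h, 6.95% for 4 h lower than 2 h, 7.12% for 6 h lower than 2 h and 4.12% for 6 h lower than 4 h. Pairs share arrays, so these counts are not independent.

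Courses in a single direction without a limit on size were found upward for 3 of 38 members (7.89%, all 3.9%), Napa, Stx6 and Vamp8, and downward for 4 (10.5%, all 4.86%), Syt1, Syt4, Cplx2 and the bright Napb probe set. No downward one spanned 1.5-fold, as 1.61% of all did.

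Other genes of the vesicle cycle were counted by the brightest probe set of each gene. Of all genes counted so, 26.3% had a 1.5-fold range and 6.12% stood apart at a single time. These shares were not matched for brightness to the lists below. Of 15 measured genes of the wider release machinery, 14 were above the floor on all 4 arrays. A 1.5-fold range was found in 4 of these, close to the share of all genes. Standing apart was found in 2, a larger share than the 6.12% of all genes but a small count, both by a low value at 2 h. Rab3a, the small GTPase on synaptic vesicles, read 699.6, 331, 643 and 615, with its second probe set under the floor on all 4 arrays. Doc2b, a calcium-binding relative of the synaptotagmins that was named after its values were seen, read 173, 102.3, 177 and 192, close to the floor at 2 h. Rab3b read 569, 301, 319 and 554, low at 2 h and 4 h. Sypl, a synaptophysin-like protein found outside neurons too, was higher at each later time, at 753, 829.7, 1089 and 1509. The median of this list at 2 h was −0.18 with 11 of 15 below, against 0.016 with 2700 of 5671 below over all genes. That array had the actin ratio of 2.70, whose part in it was not tested.

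Among 19 measured endocytosis genes, 18 were above the floor on all 4 arrays. Of these 2 had a 1.5-fold range, a smaller share than the 26.3% of all genes, which is not matched for brightness. Among all probe sets that averaged at least 500 units, as most of these genes did, the share was 12.4%. Standing apart was found in 1 of the 18, close to the 6.12% of all genes. Sh3gl3, which encodes endophilin A3, a membrane-bending partner of dynamin, read 486, 899.5, 792 and 1244, lower at 1 h than at each later time by at least 1.5-fold. Synj2, a phosphoinositide phosphatase that helps shed clathrin coats, read 238, 321, 308 and 361, and Sh3gl2, endophilin A1, read 633, 479.5, 435 and 453. Thus Sh3gl3 and Synj2 were lowest at 1 h and Sh3gl2 was highest there.

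The 16 measured genes that fill vesicles, mostly subunits of the proton pump, included 0 of 16 with a 1.5-fold range on their brightest probe set. The widest by that probe set were the pump subunits Atp6v0a2, at 817, 1145, 983 and 1053, Atp6v1g1, at 2382, 2238, 3018 and 2572, and Atp6v1c1, at 2317, 2860.0, 2765 and 3074. A dimmer probe set of the pump subunit Atp6v1b2 did reach 1.66-fold, at 433, 345, 416 and 574, while the bright one ranged 1.09-fold. Their list medians, each time against the remaining arrays, lay between −0.06, at 2 h, and 0.06, at 6 h.

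Probe sets of the same gene gave a measure of how far a course can be read. Of the 10 genes with several probe sets, 5 had 2 above the floor on all 4 arrays. In these 5 the array of the lowest value was shared by 2 (Vamp2 and Stxbp2, both at 4 h) and the array of the highest value by 0. The 2 probe sets of Vamp2 took the same direction in 4 of 6 pairs of times, as did the 2 of Stxbp2. The second Vamp2 probe set read 106 at 4 h, near the floor. Both shared minima rest on the same single 4 h array, so they cannot show whether that sample is unusual. Napb, Syt3 and Vamp4 shared neither array between their probe sets.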

How the data were processed

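The deposited table holds a linear intensity per probe set and array, all above 0. The software behind these values is not given in the sources used here. The authors' deposited intensity values had a common trimmed mean of 500.3 on each array. Genes came from the platform's annotation, and all 53 member probe sets were found in RefSeq by gene identifier with 0 symbols changed. The 66 control probe sets were left out, arrays were scaled to the same trimmed mean (2% off each end) and values were floored at the 40th percentile, 100.8, before log2. Intensities printed are unfloored. With several probe sets, the one of highest mean stood for the gene in medians.

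Members and lists were chosen with earlier results of these data known. Values are given for the release genes, for members with a range or single-direction course of 1.5-fold, for the 10 widest, for every further probe set of these, and for up to 3 genes of each other list. The remaining members were added. The steps were tested on simulated arrays. Computations ran in Python (3.11.15) with pandas (2.3.3) and NumPy (2.4.6), and plots were drawn in matplotlib (3.10.9).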

Additional observations from a re-analysis of the deposited data

How the results depend on the processing

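The counts and medians were recomputed with other scalings, floors, probe sets, fold limits and summaries. Of 160 recomputed values, 141 were counted as kept, 18 moved and 1 member fold, that of Napa, passed under the limit. A median counted as kept when it shifted by less than 0.1 (log2). Medians smaller than that could change sign and still count, as the one at 2 h did. A count was kept when equal or within 1.5-fold, and a member fold when it stayed at 1.5-fold or more. The deposited values were already scaled almost alike (factors of 0.9992 to 1.001), so recomputing with them could hardly move a value. Members standing apart, 0 at each time, became 1 at 2 h with scaling to a common median and with quantile normalization. With the floor at the 20th percentile they became 1 at 1 h, 2 at 2 h and 1 at 6 h, all dim, and members with a 1.5-fold range became 12 of 44. The lower fold limit gave 1, 1, 3 and 1 apart at 1, 2, 4 and 6 h, namely Syt1, a Syt3 probe set, 3 probe sets of Stx2, Vamp4 and Vamp2, and Nsf. A 2-fold limit left 0 members with such a range. Added after the data were seen, a mean intensity of at least 500 left 3 of 25 with a 1.5-fold range and 10 of 25 lowest at 4 h (all 22.7%). Leaving out 1 array gave 0 to 0 apart at 1 h, 0 to 1 at 2 h, 0 to 2 at 4 h and 0 to 0 at 6 h, and 3 to 5 with a 1.5-fold range. The 1 at 2 h was Snap91 without the 1 h array and the Syt3 probe set without the 6 h array, and the 2 at 4 h were Stx2 and the dim Vamp2 probe set without the 2 h array. For these recomputed counts of members apart, and for the 12 of 44, no share of all probe sets was computed. They therefore cannot be set against other probe sets. Members lowest at 4 h numbered 13 of 38 (34.2%, all 18.9%) after scaling to a common median and 16 to 21 with an array left out. Between 6 h and 2 h, the median of all probe sets moved by 0.117 (log2) with that scaling and by 0.138 with quantile normalization. The median of the members at 4 h stayed between −0.08 and −0.01, and at 2 h it ran from −0.04 to 0.06. No paired analysis was possible because each time has 1 array. The number of arrays limits every value, and the dim probe sets near 100.8 are the least certain.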
